A study of Homo sapiens with 36 samples.

Results

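The count table holds 60675 genes, and editing levels were listed for 7829, 2402 and 2944 genes in the 3 cell lines described below. The 9 messages described here, C3orf62, CPEB1, CHCHD3, SDHC, PARP1, USP5, TPT1, SF1 and MBD4, were picked from the genes with a listed level. They were picked because their editing level was far higher in an RNA immunoprecipitation (RIP) than in input, in at least 1 cell line and usually at few sites. The values that chose them are the gene-level editing levels, so these levels are given as a description and carry no test. The RNA levels and the RIP enrichments come from gene counts, which the rule of choice did not use, and are tested. Counts and editing levels cover the same lines and RIPs, and how sites were chosen is not given in the sources used here. The counts are therefore not known to be independent of the choice.

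The study measured RNA by sequencing in 36 libraries of HEK293T cells, a human embryonic kidney line. There were 3 lines, named for the fusion each carried (YTHDF1-ADAR, YTHDF2-ADAR and YTHDF3-ADAR), and every group had it switched on with doxycycline at 1 ug/mL for 24 h. From each line came 4 groups of 3 libraries: input lysate, YTHDF1 RIP, YTHDF2 RIP and YTHDF3 RIP, the last 3 with antibodies to the endogenous proteins. Uninduced cells and cells with no fusion were not analysed here, so editing by the fusion and editing native to the cells cannot be told apart. The labels do not say whether a line is a single clone, nor whether replicates came from different cultures. The spread behind each p-value is thus that of these libraries and may be technical.

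YTHDF1, YTHDF2 and YTHDF3 are cytoplasmic proteins that bind N6-methyladenosine (m6A) in messenger RNA, and they have been tied to the translation and decay of the messages they hold. ADAR enzymes turn adenosine into inosine in double-stranded RNA, and sequencers read inosine as guanosine. When the catalytic part of ADAR is tied to an RNA-binding protein, as in the method called TRIBE, editing accumulates on RNAs that the protein meets. RIP pulls down the RNAs that are held by a protein at the moment of lysis. Combining both reads the editing left by a fusion of one YTHDF protein on RNAs held by another or, in the RIP of the fused protein, by the same one. Whether an antibody also pulled down the fusion was not tested.

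The deposited editing tables give, for each gene of a line, a number of sites and a score for input and for each RIP, with 1 value per arm and no replicate values. The score never exceeded the number of sites, so the score per site, times 100, is taken here as the mean editing level in percent. The positions of the sites, the reads over them and how sites were chosen are not given in the sources used here. The depth at the sites is therefore unknown, sites of a gene in different lines are not known to be the same sites, and no interval is attached to a level. The table of the YTHDF1-ADAR line held 7829 genes with a median of 6 sites, that of the YTHDF2-ADAR line 2402 genes with a median of 1 site and that of the YTHDF3-ADAR line 2944 genes with a median of 1 site. Of the 9 messages, 8 were in the table of the YTHDF1-ADAR line (all but SF1), 7 in that of the YTHDF2-ADAR line (all but C3orf62 and MBD4) and 6 in that of the YTHDF3-ADAR line (all but C3orf62, CHCHD3 and PARP1). In 13 of these 21 entries the gene had 1 site.

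Library totals ran from 12488434 to 37451291 counts. A set of 6 libraries stood apart from the other 30, all of them YTHDF1 RIP from the YTHDF2-ADAR or the YTHDF3-ADAR line. They held 12488434 to 16341320 counts against 15921450 to 37451291, 54.1% to 74.2% of counts on protein-coding genes against 71.5% to 92.4%, and 0.696% to 4.35% on small nucleolar RNAs against 0.0360% to 0.564%. They also held 18 to 51 counts of a rat Apobec1 sequence that the authors had added to the annotation, against 0 to 23 counts in the other libraries. The fused YTHDF genes matched the labels in the input libraries, given in CPM, counts scaled to a common library size with TMM factors. The ADAR part of the labels is not covered by this match. The input levels of ADAR and ADARB1 are given further on, and that of ADARB1 differed widely between the lines. YTHDF1 was at 634 ± 97.4 CPM (SD, n = 3) in the YTHDF1-ADAR line against 87.9 ± 2.03 and 94.0 ± 5.10 in the YTHDF2-ADAR and YTHDF3-ADAR lines, and YTHDF2 and YTHDF3 were each highest in their own line. All 8 markers set for HEK293 cells were at or above 1 CPM in input, with a summed level of 939 to 3011 CPM per input library. The 4 hepatocyte markers were below 1 CPM and summed to 0 to 0.457 CPM over the libraries.

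The highest editing levels of the set were all in YTHDF1 RIP of the 2 lines whose fusion was another YTHDF protein. In YTHDF2-ADAR cells the level at the 1 site of PARP1, the nuclear enzyme that marks DNA breaks with ADP-ribose chains, was 2.0% in input and 94.8% in YTHDF1 RIP, and 3.59% and 3.11% in YTHDF2 and YTHDF3 RIP. At the 1 site of TPT1, which encodes the abundant cytosolic protein TCTP, it was 28.3% in input and 94.7%, 54.9% and 42.4% in YTHDF1, YTHDF2 and YTHDF3 RIP. SF1, the protein that recognises the intron branch point early in splicing, had 2 sites in YTHDF3-ADAR cells, whose mean level was 12.9% in input and 95.3%, 26.4% and 31.8% in the RIPs. In all, 7 of the 63 RIP levels of the set were at or above 90%, and all 7 were in these 2 arms.

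**Figure D1:**
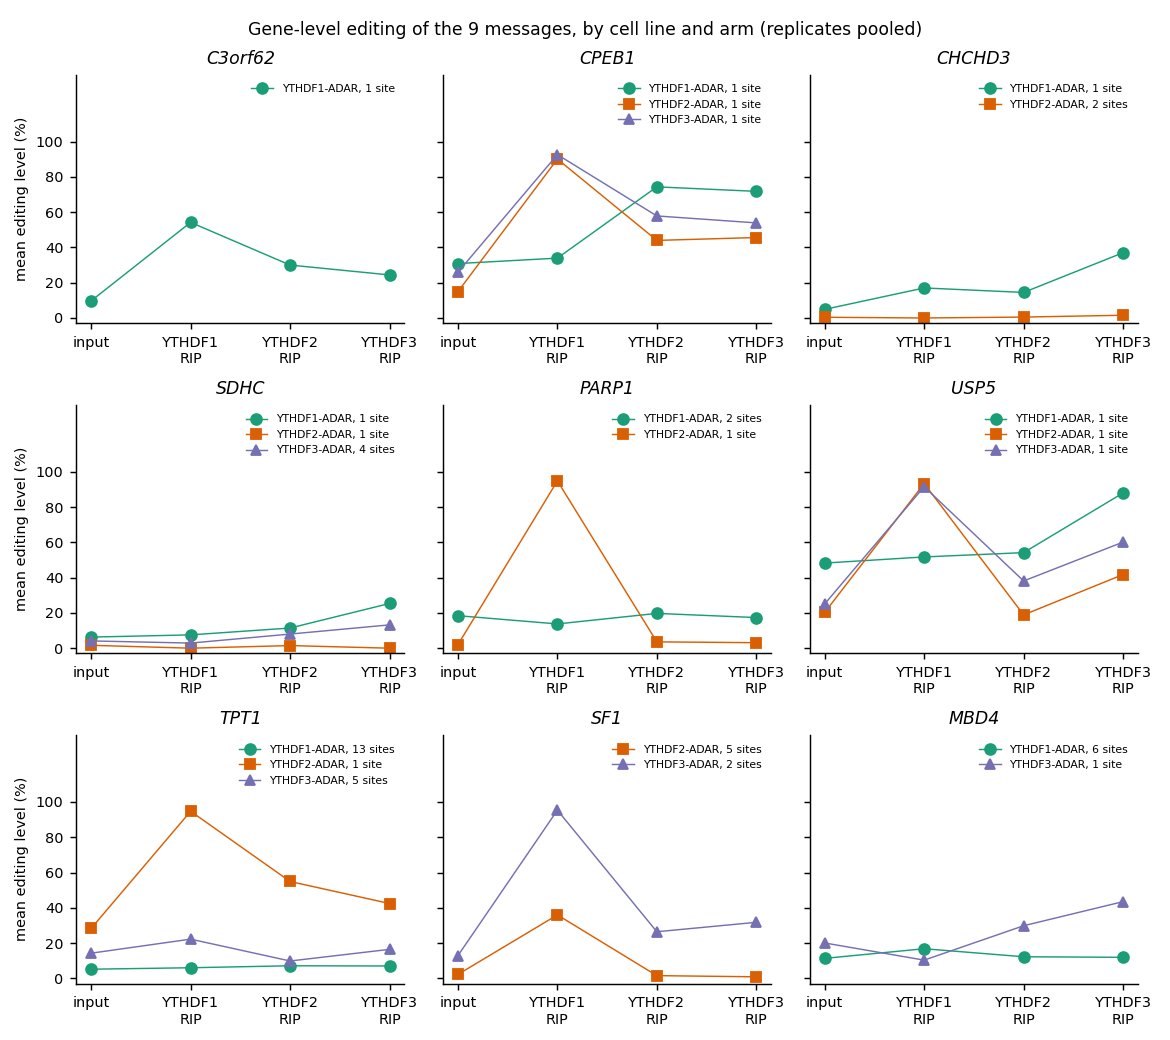
Mean editing level in percent (vertical axis, linear) of each of the 9 messages in input and in the RIPs (horizontal axis) of the YTHDF1-ADAR, YTHDF2-ADAR and YTHDF3-ADAR lines, with the number of sites of each gene in the key and 1 pooled value per point. CPEB1 and USP5 stand above 90% in YTHDF1 RIP of the YTHDF2-ADAR and YTHDF3-ADAR lines, while in the YTHDF1-ADAR line they are at 33.9% and 51.7% in that arm.

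CPEB1 was the message with the most arms far above input. CPEB1 binds the cytoplasmic polyadenylation element in 3′ untranslated regions and controls poly(A) tail length. It had 1 site in every line and a rise of at least 20 percentage points in 8 of 9 RIP arms. In YTHDF1-ADAR cells its level was 30.9% in input and 33.9%, 74.3% and 71.8% in YTHDF1, YTHDF2 and YTHDF3 RIP. In YTHDF2-ADAR cells it was 14.9% in input and 90.1%, 44.0% and 45.6% in the RIPs, and in YTHDF3-ADAR cells 25.9% in input and 92.6%, 57.8% and 53.9%. The arm with the lowest rise was YTHDF1 RIP in YTHDF1-ADAR cells, and the arms with the highest were YTHDF1 RIP in the other lines.

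USP5, a deubiquitinase that takes apart free ubiquitin chains, also had 1 site in every line. Its level in YTHDF1-ADAR cells was 48.2% in input and 51.7%, 54.2% and 88.0% in YTHDF1, YTHDF2 and YTHDF3 RIP. In YTHDF2-ADAR cells it was 20.3% in input and 93.3%, 18.9% and 41.7%, and in YTHDF3-ADAR cells 25.1% in input and 91.5%, 38.1% and 60.1%. YTHDF3 RIP was thus at least 20 points above input in every line, and YTHDF1 RIP in the YTHDF2-ADAR and YTHDF3-ADAR lines only. YTHDF2 RIP was 1.41 points below input in YTHDF2-ADAR cells and at most 13.0 points above it in the others.

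C3orf62 was listed only in YTHDF1-ADAR cells, where the level at its 1 site was 9.72% in input and 54.2%, 30.0% and 24.4% in YTHDF1, YTHDF2 and YTHDF3 RIP. CHCHD3, a subunit of the MICOS complex that shapes mitochondrial cristae, was at 4.88% in input and 17.0%, 14.5% and 37.0% at 1 site in YTHDF1-ADAR cells. Its 2 sites in YTHDF2-ADAR cells averaged 0.410% in input and between 0 and 1.56% in the RIPs. SDHC, a membrane anchor of respiratory complex II, was at 6.29% in input and 7.55%, 11.4% and 25.3% at 1 site in YTHDF1-ADAR cells. It averaged 4.12% over 4 sites in input and 2.89%, 8.0% and 13.2% in the RIPs of YTHDF3-ADAR cells. In YTHDF2-ADAR cells its 1 site was at 1.63% in input, 1.48% in YTHDF2 RIP and listed at 0 in YTHDF1 and YTHDF3 RIP. The highest level of CHCHD3 and of SDHC was thus in YTHDF3 RIP of YTHDF1-ADAR cells.

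MBD4, a glycosylase that removes thymine and uracil mispaired at CpG sites, had 1 site in YTHDF3-ADAR cells, at 20.1% in input and 10.3%, 29.8% and 43.5% in YTHDF1, YTHDF2 and YTHDF3 RIP. Its 6 sites in YTHDF1-ADAR cells averaged 11.4% in input and 11.9% to 16.8% in the RIPs. SF1 in YTHDF2-ADAR cells averaged 2.25% over 5 sites in input and 35.98%, 1.56% and 0.895% in the RIPs. TPT1 averaged 5.20% over 13 sites in input of YTHDF1-ADAR cells and 6.03% to 7.15% in its RIPs, and 14.3% over 5 sites in input of YTHDF3-ADAR cells and 9.86% to 22.2% in its RIPs. PARP1 averaged 18.4% over 2 sites in input of the YTHDF1-ADAR line, beside 13.8% to 19.7% for its RIPs. Among the entries with several sites named in this paragraph SF1 stood farthest above input, at 33.7 points, and the others were within 7.96 points of input. In YTHDF3-ADAR cells SF1, at 2 sites, was up to 82.4 points above input, and SDHC, at 4 sites, up to 9.10 points.

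Over all 63 values of the set, 51 were above input and 12 below it, and 20 of the 22 rises of at least 20 points were at entries with 1 site. In YTHDF1-ADAR cells a rise of at least 20 points was seen for 1 member in YTHDF1 RIP, 2 in YTHDF2 RIP and 3 in YTHDF3 RIP, where 0.141%, 0.128% and 0.154% of all listed genes were that far above input. In YTHDF2-ADAR cells the members were 5, 2 and 2, beside 0.723%, 0.174% and 0.130% of genes. In YTHDF3-ADAR cells they were 3, 1 and 3, beside 0.251%, 0.105% and 0.209% of genes. The members were chosen on these same contrasts, so nothing is read from those counts. Falls of at least 20 points were listed for 8 genes in YTHDF1 RIP of YTHDF2-ADAR cells, beside 16 rises, and for 15 genes in YTHDF1 RIP of YTHDF3-ADAR cells, beside 7 rises. None of the 9 messages was among the falls, and the lowest change of the set was that of MBD4 in YTHDF1 RIP of YTHDF3-ADAR cells, at -9.72 points.

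**Figure D2:**
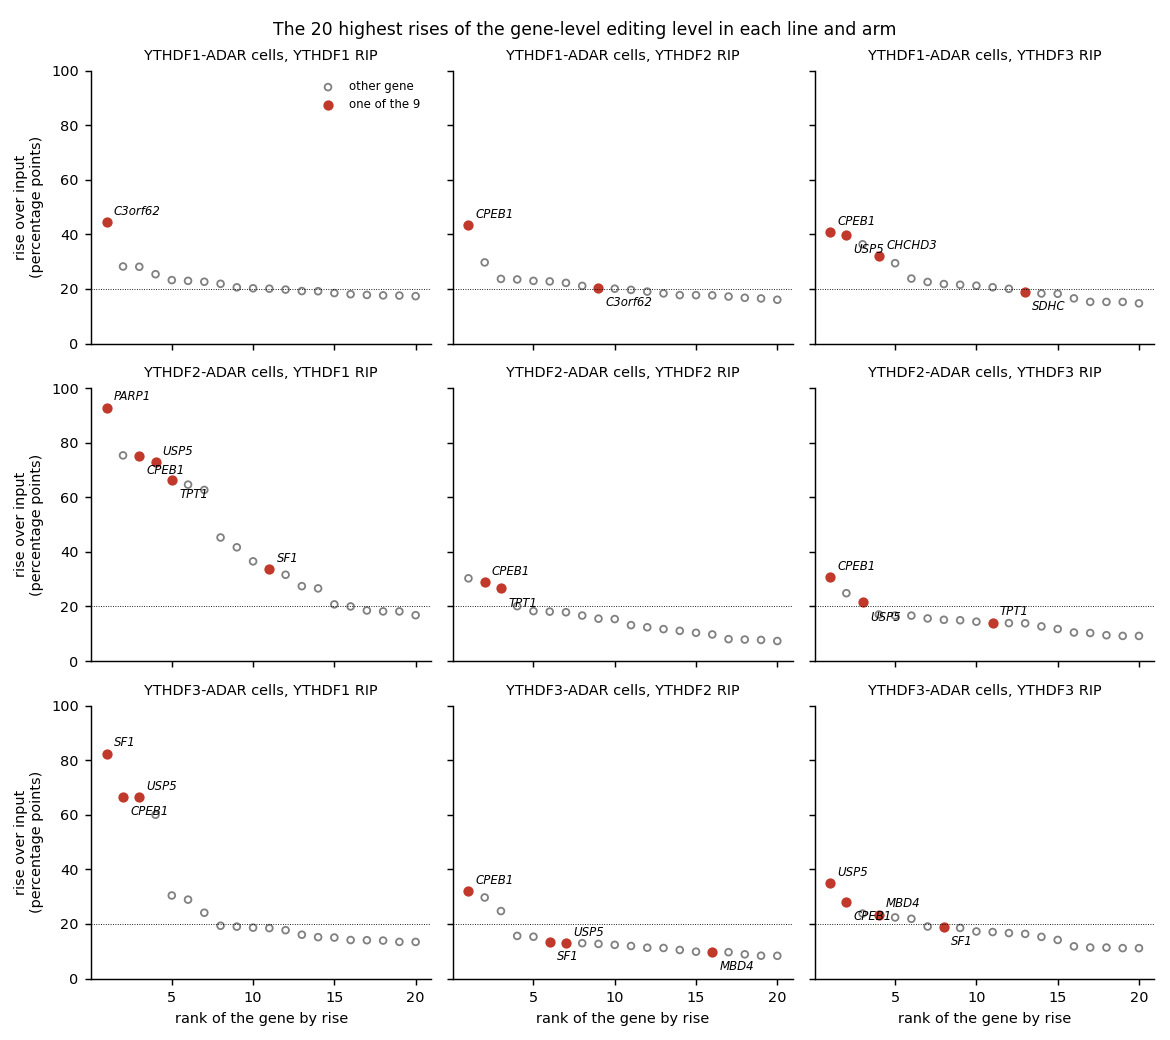
The 20 genes with the highest rise of the gene-level editing level over input in each line (rows) and RIP (columns), by rank (horizontal axis) and rise in percentage points (vertical axis, linear), with the 9 messages filled and named and 20 points dotted. In YTHDF1 RIP of YTHDF2-ADAR cells PARP1 is first at 92.8 points, and genes outside the set stand between the members.

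Genes with like rises were left outside the set. In YTHDF1 RIP of YTHDF2-ADAR cells RPL3 was 75.4 points above input at 2 sites and AMOT 64.6 points at 1 site, close to CPEB1 at 75.2 and TPT1 at 66.4 points. In YTHDF1 RIP of YTHDF3-ADAR cells DDX3X was 60.0 points above input, next below USP5 at 66.4 points. In YTHDF1-ADAR cells the rise of C3orf62 in YTHDF1 RIP was 44.5 points and that of the next gene, ELFN1, was 28.2 points. In YTHDF3 RIP of the same line TRIM7, at 36.4 points, lay between USP5 at 39.8 and CHCHD3 at 32.1 points. In YTHDF3 RIP of YTHDF3-ADAR cells MBD4, at 23.4 points, lay between NSRP1 at 23.8 and ZNF573 at 22.4 points. Among genes with 1 site the median level in input was 1.08%, 0.825% and 0.966% in the tables of the YTHDF1-ADAR, YTHDF2-ADAR and YTHDF3-ADAR lines, and CPEB1 and USP5 were at 14.9% to 48.2% there.  No entry of the set was at or above 90% in every arm, against 0, 1 and 1 of all genes with 1 site. The set was picked for rises over input, for which a level of 90% in input leaves little room. Nothing is therefore read from its lack of such an entry. Whether variants or native editing play a part in any of these levels was not tested.

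The gene counts beside these levels differed widely, and the 6 YTHDF1 RIP libraries that stood apart are the ones behind the 7 levels at or above 90%. Summed over 3 libraries, CPEB1 had 254 and 387 counts in YTHDF1 RIP of YTHDF2-ADAR and YTHDF3-ADAR cells, the lowest of the set, and 439 and 709 in the inputs. USP5 had 2790 and 2771 counts there against 9702 and 8733 in the inputs. TPT1 had 7264 against 37182 in YTHDF2-ADAR cells, and SF1 had 9508 against 23766 in YTHDF3-ADAR cells. PARP1 had 29793 counts in YTHDF1 RIP of YTHDF2-ADAR cells against 110238 in input. Each of the 7 levels was thus read with fewer counts on the gene in the RIP than in input, from a total of 254 to 29793. These counts cover the whole gene and do not give the reads over a site. The part of depth, of the RNA make-up of the 6 libraries and of their rat Apobec1 counts in these levels was not tested.

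**Figure D3:**
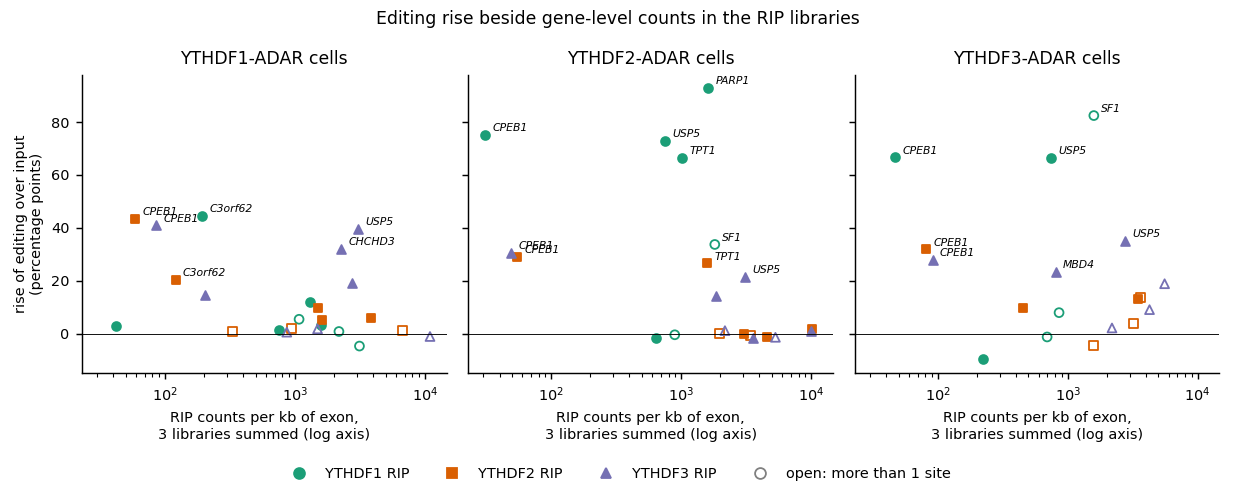
Rise of the editing level over input in percentage points (vertical axis, linear) against the RIP counts of the gene per kilobase of exon, summed over 3 libraries (horizontal axis, log), for the 9 messages in each line; filled points have 1 site, and rises of at least 20 points are named. Rises of at least 65 points occur from CPEB1, at 30.9 counts per kilobase in YTHDF1 RIP of YTHDF2-ADAR cells, to PARP1, at 1619.

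The 9 genes lie on 7 chromosomes (GRCh38, Ensembl gene spans from the header of the count table) and are all annotated as protein-coding. C3orf62 spans 49268596 to 49277232 and MBD4 129430947 to 129440179 on the minus strand of chromosome 3. CPEB1 spans 82543201 to 82648861 on the minus strand of chromosome 15, and CHCHD3 132784870 to 133082090 on the minus strand of chromosome 7. SDHC spans 161314381 to 161363206 on the plus strand and PARP1 226360210 to 226408154 on the minus strand of chromosome 1. USP5 spans 6852148 to 6866632 on the plus strand of chromosome 12, TPT1 45333471 to 45341284 on the minus strand of chromosome 13, and SF1 64764606 to 64778786 on the minus strand of chromosome 11. Whether a site lies in an exon, an intron or an untranslated region cannot be read from the tables.

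Counting ignored strand and let a read count for every gene it overlaps, so some of these counts are shared. CPEB1 shares 651 exon bases with the antisense gene CPEB1-AS1. CHCHD3 shares 172 bases with a processed pseudogene, ENSG00000283041, at 147 CPM. TPT1 shares 588 bases with an opposite-strand long non-coding RNA, ENSG00000273149, at 222 CPM. MBD4 shares 144 bases with IFT122, at 24.8 CPM in input against 24.2 CPM for MBD4. C3orf62 shares 89 bases with USP4, at 39.2 CPM in input against 5.28 CPM for C3orf62. Pseudogenes named for CHCHD3, PARP1, SDHC and TPT1 together reached at most 0.613% of their member's input level. The levels of C3orf62, CPEB1, CHCHD3, TPT1 and MBD4 are uncertain because of the shared counts.

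Per length, the 9 messages ranged widely in abundance. Over the 9 input libraries PARP1 had 73.0 CPM per kilobase of exon, TPT1 61.5, SDHC 53.8, SF1 49.5, USP5 29.9 and CHCHD3 22.9, at percentiles 92.0 to 97.9 of the 31849 genes tested. MBD4 had 7.21 CPM per kilobase (percentile 74.9). C3orf62 had 1.27 (percentile 45.7) and CPEB1 had 0.903 (percentile 40.3), with 96 to 358 and 74 to 277 counts per library. All 9 passed the filter on low counts.

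The enrichment of a message is given as the log2 fold change of RIP against input with its standard error, from edgeR's quasi-likelihood test with Benjamini-Hochberg adjustment over all 31849 genes, and a change is called at an adjusted p below 0.05. The 3 RIPs of a line share its 3 input libraries. In YTHDF1-ADAR cells 2 members were called higher and 6 lower in YTHDF1 RIP, where 20.6% of all genes were called higher and 28.8% lower, 49.5% in all. YTHDF2 RIP had 2 higher and 3 lower (8.66% and 15.5% of genes, 24.1% in all), and YTHDF3 RIP 2 and 2 (11.5% and 20.1%, 31.6% in all). In YTHDF2-ADAR cells the members were 1 higher and 6 lower in YTHDF1 RIP (41.8% and 33.4% of genes, 75.2% in all), 3 and 3 in YTHDF2 RIP (10.2% and 10.1%, 20.3% in all) and 2 and 1 in YTHDF3 RIP (15.2% and 16.9%, 32.0% in all). In YTHDF3-ADAR cells they were 1 and 7 (40.8% and 32.4%, 73.2% in all), 1 and 3 (8.98% and 9.93%, 18.9% in all) and 1 and 2 (13.5% and 16.1%, 29.6% in all). With total-count scaling the share of calls that were higher went from 35.9% to 57.7% and from 36.3% to 60.0% in YTHDF2 and YTHDF3 RIP of YTHDF1-ADAR cells. It went from 55.6%, 50.02% and 47.4% to 71.8%, 71.5% and 68.5% in the RIPs of YTHDF2-ADAR cells, and from 55.7%, 47.5% and 45.6% to 66.7%, 70.9% and 64.9% in those of YTHDF3-ADAR cells. The median log2 change of the 9 messages in YTHDF1 RIP was -0.62, -0.56 and -0.75 in the YTHDF1-ADAR, YTHDF2-ADAR and YTHDF3-ADAR lines, beside -0.28, 0.20 and 0.21 over all genes. In YTHDF2 and YTHDF3 RIP the medians of the set lay between -0.24 and 0.16. No test of the set was made. Levels are shares of a library, so fewer cells holding a message and less of it per cell cannot be told apart.

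The scale of these changes depends on the library scaling. The median change over all genes lay between -0.28 and 0.21 on the log2 scale in the 9 RIP comparisons, and it moved up by 0.15 to 0.52 when libraries were scaled by their totals. Values are therefore also read against that median. Relative to it, C3orf62, SDHC, PARP1, TPT1 and MBD4 stayed on 1 side of the median in all 9 comparisons under every alternative run, each library left out included. CPEB1, CHCHD3 and USP5 did so in 6 of 9 comparisons each and SF1 in 7 of 9, and the exceptions were all values that were not called.

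**Figure D4:**
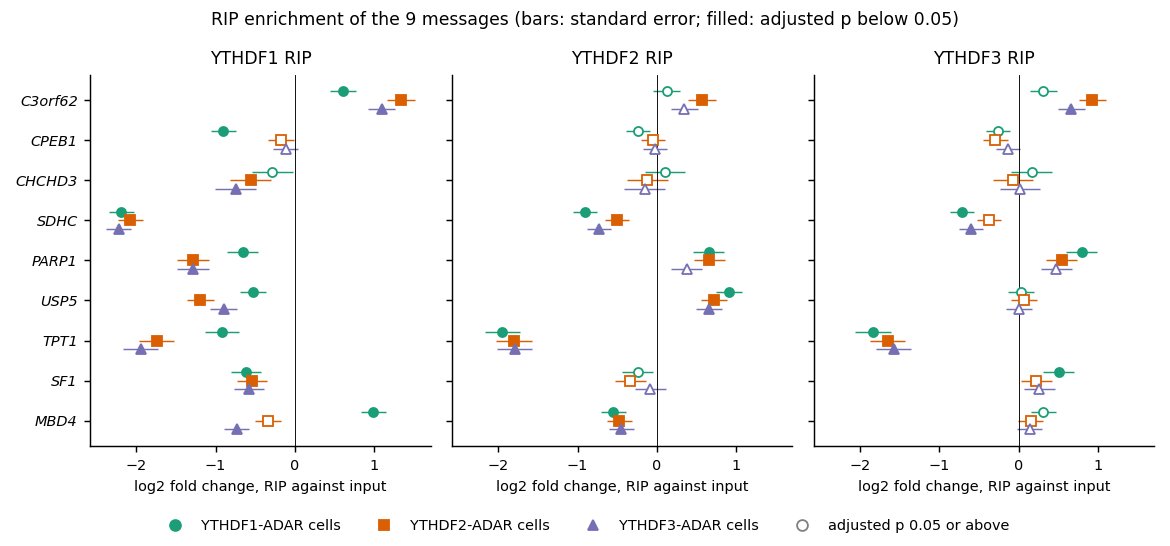
Log2 fold change of RIP against input (horizontal axis, linear) with its standard error for each of the 9 messages in YTHDF1, YTHDF2 and YTHDF3 RIP, by line; filled points have an adjusted p below 0.05. TPT1 and SDHC lie below 0 in every panel, USP5 and PARP1 lie below 0 in YTHDF1 RIP and above it in YTHDF2 RIP, and MBD4 in YTHDF1 RIP lies above 0 in YTHDF1-ADAR cells only (with total-count scaling also in YTHDF2-ADAR cells, at 0.18).

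TPT1 was depleted in every RIP. In YTHDF2-ADAR cells its input libraries were at 499.7, 476.9 and 464.3 CPM, its YTHDF1 RIP libraries at 149.1, 151.1 and 130.8 CPM and its YTHDF2 RIP libraries at 144.2, 154.2 and 115.2 CPM. No RIP library of any line overlapped the inputs of that line. The log2 change ran from -0.92 ± 0.22 (adjusted p = 0.00054) to -1.95 ± 0.22 (adjusted p = 3.15e-08), in YTHDF1 and YTHDF2 RIP of the YTHDF1-ADAR line, and all 9 comparisons were called. The message whose 1 site read 94.7% edited in YTHDF1 RIP of YTHDF2-ADAR cells was thus 3.34-fold lower there than in input.

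SDHC was called lower in 8 of 9 comparisons, and its lowest values were in YTHDF1 RIP. Its YTHDF3-ADAR inputs were at 120.6, 117.7 and 142.2 CPM and its YTHDF1 RIP libraries at 25.0, 28.5 and 28.0 CPM. The log2 changes in YTHDF1 RIP were -2.19 ± 0.16, -2.07 ± 0.16 and -2.22 ± 0.16 in the YTHDF1-ADAR, YTHDF2-ADAR and YTHDF3-ADAR lines (adjusted p = 2.16e-13, 6.57e-13 and 2.69e-13). In YTHDF2 and YTHDF3 RIP they lay between -0.37 and -0.91, and 5 of those 6 were called. The exception was YTHDF3 RIP of YTHDF2-ADAR cells, at -0.37 ± 0.15 (adjusted p = 0.0555), where the RIP libraries at 80.5, 76.6 and 76.5 CPM still lay below the inputs at 97.5, 100.5 and 104.5 CPM. That value was called with the compared groups fitted alone (adjusted p = 0.0126) and without the 6 YTHDF1 RIP libraries that stood apart (0.0466). YTHDF3 RIP of YTHDF1-ADAR cells, where the editing level of SDHC was highest, held 57.2, 48.4 and 39.8 CPM against 63.8, 85.1 and 89.0 CPM in input (-0.71 ± 0.15, adjusted p = 0.000308). The call in YTHDF2 RIP of YTHDF2-ADAR cells was lost without its RIP replicate 1 or 2 (adjusted p = 0.0596 and 0.0723) and with total-count scaling (0.0821).

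USP5 moved in opposite directions in YTHDF1 and YTHDF2 RIP. Inputs of YTHDF2-ADAR cells were at 125.4, 136.4 and 114.1 CPM, YTHDF1 RIP at 44.9, 57.8 and 62.1, YTHDF2 RIP at 219.8, 208.9 and 190.6, and YTHDF3 RIP at 128.6, 147.8 and 116.8 CPM. YTHDF1 RIP lay below the inputs, YTHDF2 RIP above them and YTHDF3 RIP across them, and the same held in both other lines. The log2 changes in YTHDF2 RIP were 0.91 ± 0.17, 0.72 ± 0.17 and 0.66 ± 0.17 in the YTHDF1-ADAR, YTHDF2-ADAR and YTHDF3-ADAR lines (adjusted p = 5.95e-05, 0.0014 and 0.00393), and the last was lost without YTHDF3-ADAR input replicate 3 (adjusted p = 0.0874). In YTHDF1 RIP they were -0.52 ± 0.17, -1.19 ± 0.17 and -0.90 ± 0.17 (adjusted p = 0.00797, 1.51e-07 and 1.6e-05). The first of these was lost with total-count scaling (adjusted p = 0.0556), with the compared groups fitted alone (0.0864), and without input replicate 3 (0.117), RIP replicate 1 (0.058) or RIP replicate 2 (0.077). In YTHDF3 RIP, where the editing level was above input in every line, the log2 changes were 0.03, 0.07 and 0.0046, none called (adjusted p = 0.921, 0.808 and 0.992).

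PARP1 followed a like course. In YTHDF2-ADAR cells its inputs were at 1326, 1503 and 1472 CPM, YTHDF1 RIP at 512, 592 and 661, YTHDF2 RIP at 2353, 2227 and 2222, and YTHDF3 RIP at 2145, 1857 and 2254 CPM. These 4 groups did not overlap except for YTHDF2 and YTHDF3 RIP, which touched each other at 2222 to 2254 CPM. The log2 change in YTHDF1 RIP was -0.66 ± 0.20, -1.28 ± 0.20 and -1.28 ± 0.20 in the YTHDF1-ADAR, YTHDF2-ADAR and YTHDF3-ADAR lines (adjusted p = 0.00518, 7.58e-07 and 8.55e-07). YTHDF1 RIP replicate 3 of YTHDF1-ADAR cells was at 981 CPM against 510 and 578 in the others, and the call in that line was lost with the compared groups fitted alone (adjusted p = 0.15) and without RIP replicate 1 (0.115), RIP replicate 2 (0.0814) or input replicate 3 (0.0666). YTHDF2 RIP was higher by 0.65 ± 0.20 and 0.66 ± 0.20 in the YTHDF1-ADAR and YTHDF2-ADAR lines (adjusted p = 0.012 and 0.013) and stood at 0.37 ± 0.20 in YTHDF3-ADAR cells (adjusted p = 0.199). The first call was lost without input replicate 1 (adjusted p = 0.0688) and with the compared groups alone (0.107), the second without any of the 3 inputs (0.0639 to 0.126). YTHDF3 RIP was at 0.79 ± 0.20, 0.54 ± 0.20 and 0.47 ± 0.20 (adjusted p = 0.00159, 0.0312 and 0.0664), and the second of these was lost when any 1 of its 6 libraries was left out (adjusted p between 0.0849 and 0.224) and without the filter on low counts (0.08). The values of YTHDF3-ADAR cells that were not called were called with total-count scaling (adjusted p = 0.0188 in YTHDF2 RIP and 0.00182 in YTHDF3 RIP), the first also without RIP replicate 1 (0.0316), the second also with DESeq2 (0.0181) and with the compared groups alone (0.0307).

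**Figure D5:**
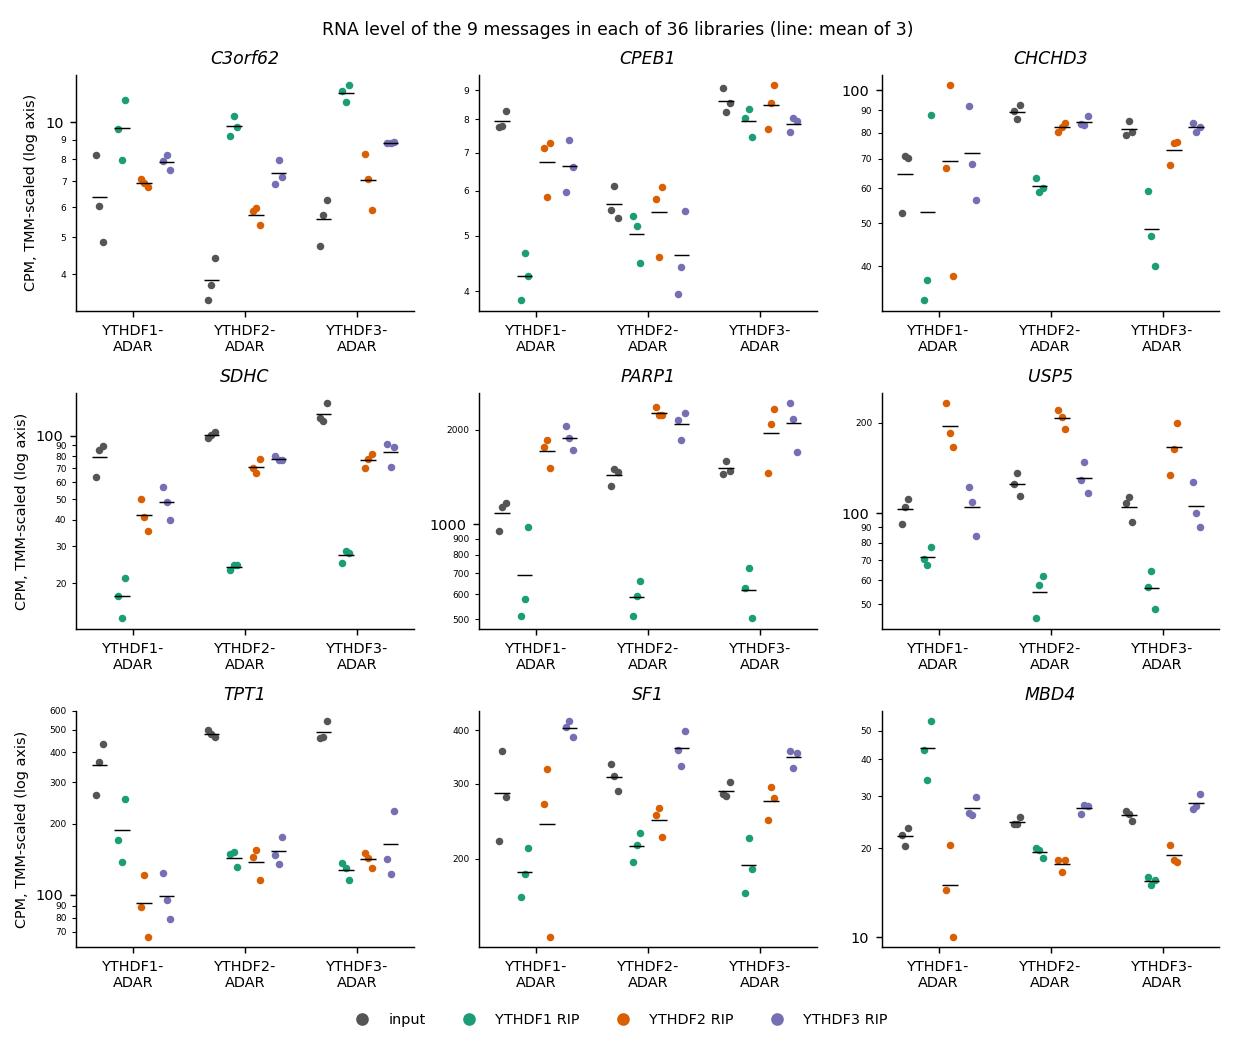
RNA level of each of the 9 messages in CPM after TMM scaling (vertical axis, log) in each of 36 libraries, grouped by line (horizontal axis) and coloured by arm, with the mean of 3 as a line. TPT1 and SDHC inputs stand above all RIPs of their line, and USP5 stands highest in YTHDF2 RIP of every line.

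C3orf62 was the member enriched in YTHDF1 RIP of every line. Its inputs in YTHDF2-ADAR cells were at 3.42, 3.76 and 4.43 CPM and its YTHDF1 RIP libraries at 9.20, 10.4 and 9.71 CPM. Inputs of YTHDF1-ADAR cells, the line in which it was listed as edited, were at 8.23, 6.04 and 4.87 CPM, and YTHDF1 RIP at 9.60, 7.99 and 11.4 CPM, so these groups overlapped. The log2 change was 0.61 ± 0.17, 1.34 ± 0.18 and 1.10 ± 0.17 in the YTHDF1-ADAR, YTHDF2-ADAR and YTHDF3-ADAR lines (adjusted p = 0.00275, 3.87e-08 and 9.99e-07). YTHDF3 RIP was at 0.31 ± 0.17, 0.93 ± 0.17 and 0.66 ± 0.17 (adjusted p = 0.173, 5.65e-05 and 0.00222). The first of these was called with total-count scaling (adjusted p = 0.0163), DESeq2 (0.0218), without the 6 libraries that stood apart (0.0184) and without YTHDF3 RIP replicate 2 (0.0161) or input replicate 1 (0.017). Of the YTHDF2 RIP values, 0.57 ± 0.17 in YTHDF2-ADAR cells was called (adjusted p = 0.0165), but not without input replicate 1 (0.139) or 2 (0.0811), nor without the filter on low counts (0.122).

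CPEB1 was called in 1 of 9 comparisons. In YTHDF2-ADAR cells its inputs were at 5.55, 6.11 and 5.38 CPM and its YTHDF1 RIP libraries at 5.42, 5.19 and 4.49 CPM, and in YTHDF3-ADAR cells its inputs were at 9.09, 8.25 and 8.54 CPM and its YTHDF1 RIP libraries at 8.05, 8.34 and 7.46 CPM. Both pairs of groups overlapped, and the log2 changes were -0.18 ± 0.16 and -0.12 ± 0.16 (adjusted p = 0.325 and 0.506). With total-count scaling they were 0.35 and 0.22. The first was called lower without RIP replicate 1 (adjusted p = 0.0133) or input replicate 1, 2 or 3 (0.0187, 0.042 and 0.011), and the second without RIP replicate 2 (0.0284) or input replicate 2 or 3 (0.0265 and 0.0348). The single called value was that of YTHDF1 RIP in YTHDF1-ADAR cells, with inputs at 7.75, 7.80 and 8.29 CPM and RIP libraries at 3.85, 4.66 and 4.25 CPM (-0.90 ± 0.16, adjusted p = 8.73e-06). That is the arm in which its editing level was least above input. The other 6 values lay between -0.30 and -0.03, none called, and that of YTHDF3 RIP in YTHDF2-ADAR cells was called without RIP replicate 3 (-0.51, adjusted p = 0.0379).

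MBD4 was higher in YTHDF1 RIP of YTHDF1-ADAR cells and lower in that of YTHDF3-ADAR cells. Its YTHDF1-ADAR inputs were at 22.2, 20.4 and 23.4 CPM and its YTHDF1 RIP libraries at 43.0, 34.2 and 53.8 CPM (0.99 ± 0.16, adjusted p = 2.12e-06). In YTHDF3-ADAR cells inputs were at 26.8, 26.1 and 24.7 CPM and YTHDF1 RIP at 15.95, 15.02 and 15.67 CPM (-0.74 ± 0.16, adjusted p = 0.000154). YTHDF1 RIP of YTHDF2-ADAR cells was at -0.34 ± 0.16 (adjusted p = 0.0528), and at 0.18 with total-count scaling. It was called lower without the filter (adjusted p = 0.025), with the compared groups alone (0.0173) and without RIP replicate 1 or 3 or any of the 3 inputs (0.00236 to 0.00472). YTHDF2 RIP was lower in every line, at -0.55 ± 0.16, -0.47 ± 0.16 and -0.45 ± 0.16 (adjusted p = 0.00962, 0.0298 and 0.0424), but each call was lost with total-count scaling (adjusted p = 0.0669, 0.19 and 0.257). The call in YTHDF1-ADAR cells was also lost without RIP replicate 1 (0.0933), RIP replicate 3 (0.286) or input replicate 3 (0.173), without the filter (0.116) and with the compared groups alone (0.224). Those in the other lines were lost in 6 and 5 of 6 fits that left out a library (adjusted p between 0.0523 and 0.0992 and between 0.0694 and 0.103), the latter also without the filter (0.149). In YTHDF3 RIP, where its editing level in YTHDF3-ADAR cells was highest, MBD4 was at 27.2, 27.7 and 30.4 CPM, just above the inputs and not called (0.14 ± 0.16, adjusted p = 0.575), although total-count scaling called it (0.0475). In YTHDF3 RIP of YTHDF1-ADAR cells it was at 0.31 ± 0.16 (adjusted p = 0.14) and was called under 6 alternatives, the lowest adjusted p being 0.00139 with total-count scaling.

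SF1 was lower in YTHDF1 RIP of every line. Its inputs in YTHDF3-ADAR cells were at 283.5, 281.2 and 302.5 CPM and YTHDF1 RIP at 166, 224 and 189 CPM, with no overlap. The log2 changes were -0.62 ± 0.19, -0.54 ± 0.19 and -0.58 ± 0.19 in the YTHDF1-ADAR, YTHDF2-ADAR and YTHDF3-ADAR lines (adjusted p = 0.0075, 0.0122 and 0.00779). The first was lost with the compared groups alone (adjusted p = 0.109) and without RIP replicate 1 (0.087) or input replicate 2 (0.0947). Those of the other lines were lost with total-count scaling (adjusted p = 0.946 and 0.184), and that of YTHDF2-ADAR cells also with DESeq2 (0.0532). SF1 was higher in YTHDF3 RIP of YTHDF1-ADAR cells (0.50 ± 0.19, adjusted p = 0.0437), a call lost without RIP replicate 1 (0.0511), input replicate 1 (0.197) or input replicate 3 (0.0547).

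CHCHD3 was lower in YTHDF1 RIP of YTHDF2-ADAR cells, at 63.4, 58.8 and 59.9 CPM against 89.9, 86.0 and 92.3 CPM in input (-0.56 ± 0.26, adjusted p = 0.0489). It was also lower in that of YTHDF3-ADAR cells, at 59.1, 46.7 and 40.1 CPM against 79.2, 85.3 and 80.4 CPM (-0.75 ± 0.26, adjusted p = 0.0104). Both calls were lost with total-count scaling (adjusted p = 0.895 and 0.0878), and the first also with DESeq2 (0.126), with the replicate number as a block (0.0615) and without RIP replicate 2 (0.1). In YTHDF1-ADAR cells, the line in which its editing level was highest, its RIP libraries were widely spread. They stood at 33.5, 37.3 and 87.9 CPM in YTHDF1 RIP and 66.6, 102.5 and 38.0 CPM in YTHDF2 RIP, across the inputs at 52.6, 70.8 and 70.1 CPM, and none of the 3 RIPs was called. Without YTHDF1 RIP replicate 3 the change there was -0.83 (adjusted p = 0.00333) instead of -0.28 (0.375).

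Set side by side, of the 7 levels at or above 90%, all in YTHDF1 RIP, 5 belonged to messages that were lower in that RIP than in input (PARP1, TPT1, SF1 and USP5 in both lines) and 2 to CPEB1, which was not called. Over all genes 33.4% and 32.4% were called lower in YTHDF1 RIP of YTHDF2-ADAR and YTHDF3-ADAR cells, and 41.8% and 40.8% higher. The call of SF1 in YTHDF3-ADAR cells was lost with total-count scaling. C3orf62 had both a rise of 44.5 points and a called enrichment of 0.61 in YTHDF1 RIP of YTHDF1-ADAR cells. This is a description of values chosen for their editing, with no test.

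In the authors' deposited table of RIP against input, whose lines are not stated, the log2 fold change in YTHDF1 RIP was 0.75 for C3orf62, -0.64 for CPEB1, -0.78 for CHCHD3, -2.43 for SDHC and -1.32 for PARP1. For USP5, TPT1, SF1 and MBD4 the authors' deposited table gave -1.09, -1.76, -0.83 and -0.06 there. In YTHDF2 RIP the authors' deposited table gave 0.86 for USP5 and 0.65 for PARP1, and -1.75 for TPT1 and -0.60 for SDHC. In YTHDF3 RIP the authors' deposited table gave -1.60 for TPT1, 0.67 for PARP1 and 0.12 for USP5.

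The 3 interactions tested whether the enrichment of a message differed between lines. For YTHDF1 RIP it did for 5 members, C3orf62, CPEB1, MBD4, TPT1 and USP5, where 63.7% of all genes differed. For YTHDF2 RIP no gene passed the threshold (0%) in edgeR, with 1064 genes at an unadjusted p below 0.05 and 3 genes called by DESeq2. For YTHDF3 RIP 2 genes passed (0.00628%), with 1632 genes at an unadjusted p below 0.05 and 7 called by DESeq2, and no member was among those of edgeR. A p that misses the threshold does not show that the lines act alike.

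Between the inputs of the lines 4 differences were called among the members. C3orf62 and CPEB1 were higher in YTHDF1-ADAR than in YTHDF2-ADAR cells, by 0.72 ± 0.17 (adjusted p = 0.00441) and 0.48 ± 0.16 (adjusted p = 0.0283), where 17.6% of genes were called, 13.3% higher and 4.3% lower. SDHC was lower in YTHDF1-ADAR than in YTHDF3-ADAR cells (-0.68 ± 0.15, adjusted p = 0.00251, 16.4% of genes called, 11.3% higher and 5.1% lower). CPEB1 was lower in YTHDF2-ADAR than in YTHDF3-ADAR cells (-0.60 ± 0.15, adjusted p = 0.0188, 3.42% of genes called, 1.27% higher and 2.15% lower). CPEB1 inputs were at 5.38 to 6.11 CPM in the YTHDF2-ADAR line, 7.75 to 8.29 CPM in the YTHDF1-ADAR line and 8.25 to 9.09 CPM in the YTHDF3-ADAR line, and the latter groups overlapped. Its calls were lost when 5 and 6 of the 6 input libraries were left out in turn (adjusted p up to 0.266 and 0.166), without the 6 YTHDF1 RIP libraries (0.137 and 0.0585) and without the filter (0.27 and 0.239). That of C3orf62 was lost without YTHDF1-ADAR input replicate 1 (0.179), YTHDF2-ADAR input replicate 1 (0.0975) or 2 (0.0647), and with the compared groups alone (0.0793). ADARB1, the gene of another editing enzyme, stood at 521 ± 40.0 CPM in the YTHDF1-ADAR inputs, 58.16 ± 1.998 in the YTHDF2-ADAR inputs and 2091 ± 56.6 in the YTHDF3-ADAR inputs. ADAR stood at 344 ± 43.2, 413 ± 19.2 and 475 ± 16.6 CPM. Gene counts cannot tell a fusion transcript from the cells' own, and the part of these levels in the editing of the members was not tested.

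The genes of the members' pathways were read from 7 lists, each of which holds its member, and values for the lines are given in the order YTHDF1-ADAR, YTHDF2-ADAR, YTHDF3-ADAR. Over all genes 28.8%, 33.4% and 32.4% were called lower and 20.6%, 41.8% and 40.8% higher in YTHDF1 RIP, 15.5%, 10.1% and 9.93% lower and 8.66%, 10.2% and 8.98% higher in YTHDF2 RIP, and 20.1%, 16.9% and 16.1% lower and 11.5%, 15.2% and 13.5% higher in YTHDF3 RIP. The median log2 change over all genes was -0.28, 0.20 and 0.21 in YTHDF1 RIP, -0.11, 0.02 and 0.00052 in YTHDF2 RIP, and -0.23, 0.09 and 0.0085 in YTHDF3 RIP. The counts and medians of the lists are descriptions beside these values, with no test of a list. Of 18 messages with a 5′ terminal oligopyrimidine tract, the class that TPT1 belongs to and that encodes much of the translation machinery, 15, 16 and 17 were lower in YTHDF1 RIP of the YTHDF1-ADAR, YTHDF2-ADAR and YTHDF3-ADAR lines and none higher. Their medians were -1.31, -1.79 and -1.70 against -0.28, 0.20 and 0.21 for all genes. In YTHDF2 RIP 11, 10 and 9 were lower and 1 higher, and in YTHDF3 RIP 11, 13 and 12 were lower and none higher, with medians of -0.88, -0.82 and -0.81 and of -1.18, -1.20 and -1.03. EIF3E, a subunit of initiation factor eIF3, fell by 2.17 ± 0.20 on the log2 scale in YTHDF1 RIP of YTHDF1-ADAR cells (adjusted p = 2.3e-11).

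Of the 8 subunits and assembly factors of complex II, SDHC included, 6, 7 and 8 were lower and 2, 0 and 0 higher in YTHDF1 RIP, beside 28.8%, 33.4% and 32.4% of all genes lower, with medians of -1.82, -1.80 and -1.87. In YTHDF1-ADAR cells the other 2 were higher, the assembly factors SDHAF1 (2.62 ± 0.23, adjusted p = 8.7e-12) and SDHAF2 (2.13 ± 0.18, adjusted p = 5.4e-12), while the membrane anchor SDHD fell by 2.58 ± 0.23 (adjusted p = 1.3e-11). In the YTHDF2-ADAR and YTHDF3-ADAR lines SDHAF1 fell by 1.10 ± 0.23 and 0.78 ± 0.23 in the same RIP (adjusted p = 9e-05 and 0.0029). In YTHDF2 RIP 6 genes of the list were lower and 2 higher in every line (medians -1.33, -0.82 and -0.98), and in YTHDF3 RIP 7, 5 and 6 were lower and none higher (medians -1.29, -0.85 and -0.84).

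Of 12 genes of MICOS and cristae, 9, 10 and 10 were lower in YTHDF1 RIP and none higher, beside 28.8%, 33.4% and 32.4% of all genes lower, with medians of -1.14, -1.07 and -1.23. In YTHDF2 RIP 6, 5 and 4 were lower and 1 higher (medians -0.46, -0.20 and -0.20), and in YTHDF3 RIP 7 were lower and 2 higher in every line (medians -1.05, -1.08 and -1.04). APOOL, a MICOS subunit, fell by 2.39 ± 0.19 in YTHDF1 RIP of YTHDF1-ADAR cells (adjusted p = 8.8e-13) and was among those higher in YTHDF3 RIP, in every line, at 1.30 ± 0.18, 1.39 ± 0.18 and 1.32 ± 0.18 (adjusted p = 3e-07, 9.7e-08 and 2.6e-07). MICOS10, another subunit, fell by 2.54 ± 0.19 in YTHDF3 RIP of YTHDF1-ADAR cells (adjusted p = 1.6e-12). CHCHD3 itself was not called in any YTHDF3 RIP.

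Of 22 genes of base excision and single-strand break repair, PARP1 and MBD4 included, 17, 11 and 12 were lower and 4, 3 and 4 higher in YTHDF1 RIP, beside 28.8%, 33.4% and 32.4% of all genes lower and 20.6%, 41.8% and 40.8% higher, with medians of -0.84, -0.38 and -0.49. In YTHDF1-ADAR cells POLB, the repair polymerase, fell by 2.03 ± 0.18 (adjusted p = 1e-11) and OGG1, the 8-oxoguanine glycosylase, by 1.35 ± 0.14 (adjusted p = 4.6e-10), while the uracil glycosylase SMUG1 was higher by 1.18 ± 0.13 (adjusted p = 1.8e-09). In YTHDF2 RIP 9, 4 and 3 genes of the list were lower and 3, 4 and 4 higher (15.5%, 10.1% and 9.93% of all genes lower; medians of the list -0.36, -0.02 and -0.12). In YTHDF3 RIP 11, 10 and 8 were lower and 3, 3 and 2 higher (20.1%, 16.9% and 16.1% of all genes lower; medians of the list -0.44, -0.36 and -0.26).

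Of 15 deubiquitinases, 10, 11 and 12 were lower in YTHDF1 RIP, USP5 among them, and 3, 2 and 1 higher, beside 28.8%, 33.4% and 32.4% of all genes lower, with medians of -0.52, -0.68 and -0.74. USP10 was higher in YTHDF1 RIP of YTHDF1-ADAR cells (1.99 ± 0.18, adjusted p = 1e-11), and UCHL5, a deubiquitinase of the proteasome, fell by 1.58 ± 0.17 there (adjusted p = 9.7e-10). In YTHDF2 RIP, where USP5 was higher in every line, 4, 4 and 5 of the list were higher and 6, 3 and 5 lower (8.66%, 10.2% and 8.98% of all genes higher; medians of the list -0.16, -0.08 and -0.16). In YTHDF3 RIP 6, 6 and 5 were higher and 4 lower in every line (11.5%, 15.2% and 13.5% of all genes higher; medians of the list 0.31, 0.07 and 0.26).

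Of 15 genes of branch point and 3′ splice site recognition, 4, 12 and 12 were lower and 2, 0 and 0 higher in YTHDF1 RIP, beside 28.8%, 33.4% and 32.4% of all genes lower, with medians of -0.26, -0.95 and -0.97. U2AF1, which reads the 3′ splice site beside SF1, fell by 1.70 ± 0.19 in YTHDF1-ADAR cells (adjusted p = 1.3e-09). PHF5A, a subunit of SF3B, was higher there (0.85 ± 0.20, adjusted p = 0.00054) and fell by 1.82 ± 0.21 and 2.04 ± 0.21 in the YTHDF2-ADAR and YTHDF3-ADAR lines (adjusted p = 4.1e-09 and 4.7e-10). In YTHDF2 RIP 3, 2 and 2 of the list were lower and 2, 2 and 1 higher, beside 15.5%, 10.1% and 9.93% of all genes lower (medians of the list -0.24, -0.10 and -0.08). In YTHDF3 RIP 6, 8 and 7 were lower and 3, 2 and 2 higher, beside 20.1%, 16.9% and 16.1% of all genes lower (medians of the list -0.49, -0.56 and -0.50).

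Of the 13 genes tested of 14 of cytoplasmic polyadenylation, CPEB1 included, 9, 4 and 4 were lower in YTHDF1 RIP and 0, 2 and 2 higher, beside 28.8%, 33.4% and 32.4% of all genes lower, with medians of -0.67, -0.18 and -0.09. The counts of 4 lie near the share of all genes and say nothing about the list. TENT2, the cytoplasmic poly(A) polymerase, fell by 1.496 ± 0.17 in YTHDF1-ADAR cells (adjusted p = 3.4e-09), and PARN, the deadenylase, by 1.27 ± 0.16 (adjusted p = 2.2e-08). In the YTHDF2-ADAR and YTHDF3-ADAR lines TENT2 was at 0.33 ± 0.17 and 0.09 ± 0.17 in the same RIP, not called. In YTHDF2 RIP 2, 1 and 1 genes of the list were lower and 1, 2 and 2 higher, beside 15.5%, 10.1% and 9.93% of all genes lower. In YTHDF3 RIP 1 gene was lower in every line and 0, 0 and 1 higher, beside 20.1%, 16.9% and 16.1% of all genes lower.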

How the data were processed

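RNA was measured by directional, ribosomal RNA-depleted sequencing in 12 groups of 3 libraries, per the labels' protocols. The authors aligned reads with STAR 2.7.7 to GRCh38, per the submitters' processing notes, and counted fragments over exons with featureCounts 2.0.1, with reads allowed to several genes and no strand option, per the file headers. The deposited count table holds raw counts per gene, with no normalization. The deposited editing tables hold a site number, a score per arm and a natural log odds ratio made by the authors; how the score was made and replicates combined is not given in the sources used here, and no adjusted p of theirs was used. Where a level was 0, the log odds ratio is not finite. The values listed there for members in YTHDF2-ADAR cells were extreme and differed. They were -17.4 for CHCHD3 in YTHDF1 RIP, and -18.3 and -20.0 for SDHC in YTHDF1 and YTHDF3 RIP. The authors' deposited table also holds log2 fold changes of RIP against input.

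Counts of 60675 genes were scaled by TMM, filtered with filterByExpr to 31849 and fitted over all 12 groups with edgeR 4.0.16 in R 4.3.3 (quasi-likelihood test, Benjamini-Hochberg adjustment, threshold 0.05). The standard error is the log2 change over the root of F. The procedure was tested on simulated data. Editing levels were computed as 100 times the score over the site number. Alternatives were DESeq2 1.42.0, total-count scaling, no filter, the compared groups alone, the replicate number as a block, the 6 libraries of YTHDF1 RIP in the YTHDF2-ADAR or the YTHDF3-ADAR line left out, and each library left out. Library totals of 12488434 to 37451291 counts set the precision. All 9 members were named, with up to 3 genes per pathway list with the smallest p in YTHDF1 RIP of YTHDF1-ADAR cells, and neighbours in editing rank. Members and lists were chosen with earlier results of these data known, and the 20-point threshold after values were seen. Site sequences and positions were not analysed here. Some overlapping genes and list genes that the rule names are not reported here.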

Additional observations from a re-analysis of the deposited data

Results flagged for a closer look

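The enrichment in YTHDF1 RIP differed between the 3 lines for 5 of the 9 messages, by edgeR's quasi-likelihood test of the interaction with Benjamini-Hochberg adjustment. For MBD4 the log2 change was 0.99, -0.34 and -0.74 in the YTHDF1-ADAR, YTHDF2-ADAR and YTHDF3-ADAR lines (adjusted p = 9.41e-08), and the difference was called under every alternative run. For TPT1 it was -0.92, -1.74 and -1.94 (adjusted p = 0.00895), also called under every alternative run. For CPEB1 it was -0.90, -0.18 and -0.12 (adjusted p = 0.00352), lost without the filter on low counts (0.124), with the compared groups alone (0.272) and in 14 fits that left out a library. For C3orf62 it was 0.61, 1.34 and 1.10 (adjusted p = 0.0247), lost without the filter (0.258), with the compared groups alone (0.554) and in 17 fits that left out a library. For USP5 it was -0.52, -1.19 and -0.90 (adjusted p = 0.0411), lost with total-count scaling (0.433) and without YTHDF1-ADAR input replicate 2 (0.0551). The libraries of YTHDF1 RIP in the YTHDF2-ADAR and the YTHDF3-ADAR lines are the 6 that stood apart in depth and RNA make-up, so line and library make-up cannot be told apart here. In YTHDF1 RIP 63.7% of all genes differed between lines.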

How the results depend on the processing

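Of 135 values of single members under each alternative, 134 kept direction and call with the replicate number as a block, 125 with DESeq2, 123 without the filter, 117 with the compared groups alone and 103 with total-count scaling; without the 6 YTHDF1 RIP libraries 100 of 108 did. The median over all genes moved by 0.15 to 0.52 with total-count scaling, by -0.13 to 0.32 with the compared groups alone and by -0.29 to 0.29 with a library left out.

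With total-count scaling the sign turned for CPEB1 (YTHDF3 RIP of YTHDF1-ADAR cells 0.031; YTHDF1 and YTHDF2 RIP of YTHDF2-ADAR cells 0.35 and 0.15; YTHDF1, YTHDF2 and YTHDF3 RIP of YTHDF3-ADAR cells 0.22, 0.17 and 0.10), CHCHD3 (YTHDF2 and YTHDF3 RIP of YTHDF2-ADAR cells 0.078 and 0.20, YTHDF2 RIP of YTHDF3-ADAR cells 0.041), MBD4 (YTHDF1 RIP of YTHDF2-ADAR cells 0.18), SF1 (YTHDF2 RIP of YTHDF3-ADAR cells 0.11) and, between the YTHDF1-ADAR and YTHDF3-ADAR inputs, USP5 (0.041) and SF1 (0.043). Other sign changes were CPEB1 with DESeq2 (YTHDF1 RIP of YTHDF3-ADAR cells 0.046), CPEB1 without the filter (YTHDF2 RIP of YTHDF3-ADAR cells 0.012), TPT1 between the YTHDF2-ADAR and YTHDF3-ADAR inputs without the filter (0.014) and without the 6 libraries (0.011), and USP5 and SF1 between the YTHDF1-ADAR and YTHDF3-ADAR inputs with the compared groups alone (0.024 and 0.035). None of these values was called in edgeR as reported, and the cause was not tested.

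With a library left out, values that changed sign ranged as follows. In YTHDF1-ADAR cells CHCHD3 and SF1 in YTHDF2 RIP ranged from -0.25 to 0.45 and -0.46 to 0.11, and USP5 in YTHDF3 RIP from -0.020 to 0.28. In YTHDF2-ADAR cells CPEB1 in YTHDF2 RIP ranged from -0.15 to 0.11 and USP5 in YTHDF3 RIP from -0.11 to 0.073. In YTHDF3-ADAR cells CPEB1 and SF1 in YTHDF2 RIP ranged from -0.10 to 0.060 and -0.15 to 0.0047, and CHCHD3 and USP5 in YTHDF3 RIP from -0.062 to -0.0041 and -0.20 to 0.074. Between the YTHDF1-ADAR and YTHDF3-ADAR inputs C3orf62, USP5 and SF1 ranged from -0.067 to 0.22, -0.25 to 0.011 and -0.21 to 0.11, and between the YTHDF2-ADAR and YTHDF3-ADAR inputs TPT1 from -0.061 to 0.064.

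With the compared groups alone, genes called were 3859 against 7678 in YTHDF2 RIP of YTHDF1-ADAR cells, 9729 against 6466 in YTHDF2 RIP of YTHDF2-ADAR cells, and 1620 against 5614, 1719 against 5233 and 3188 against 1088 between the inputs of YTHDF1-ADAR and YTHDF2-ADAR, YTHDF1-ADAR and YTHDF3-ADAR, and YTHDF2-ADAR and YTHDF3-ADAR cells. Members called were then 5 against 8 and 3 against 5 in YTHDF1 and YTHDF2 RIP of YTHDF1-ADAR cells, and 0 against 2 and 2 against 1 between the first and the last of those inputs. With total-count scaling 5 and 6 members were called against 3 and 3 in YTHDF3 RIP of YTHDF2-ADAR and YTHDF3-ADAR cells. Between the YTHDF1-ADAR and YTHDF3-ADAR inputs 2 members were called with DESeq2 or without the 6 libraries, against 1. Between the YTHDF2-ADAR and YTHDF3-ADAR inputs 2 were called with DESeq2 and 0 without the filter or without the 6 libraries, against 1. Between lines 3 members differed in YTHDF1 RIP without the filter, against 5. Genes whose YTHDF2 RIP enrichment differed between lines numbered 3 with DESeq2 and 112 without the filter, against 0, and for YTHDF3 RIP 7 with DESeq2, 238 without the filter, 1 with total-count scaling and 0 with the compared groups alone or without the 6 libraries, against 2.

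With a library left out, genes called ranged from 1093 to 8448, 1095 to 7141 and 586 to 677 over the inputs in the same order, with 0 to 4, 1 to 3 and 0 members. They ranged from 4272 to 5643 and 3344 to 5665 in YTHDF2 RIP of YTHDF2-ADAR and YTHDF3-ADAR cells, with 3 to 5 and 2 to 5 members. Members called were 5 to 9 in YTHDF1 RIP and 3 to 6 in YTHDF3 RIP of YTHDF1-ADAR cells, 2 to 3 in YTHDF3 RIP of YTHDF2-ADAR cells and 3 to 5 between lines in YTHDF1 RIP. Genes that differed between lines were 0 to 1 for YTHDF2 RIP and 0 to 3 for YTHDF3 RIP.

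Replicate numbers were not taken to pair the samples: deviations of same-numbered libraries correlated between -0.395 and 0.327 over 27 pairs. In YTHDF3-ADAR cells these correlations lay between -0.026 and 0.133, and those of differently numbered libraries between -0.129 and 0.077. Whether a weak pairing exists in that line was not tested. The replicate block ended 1 member call, CHCHD3 in YTHDF1 RIP of YTHDF2-ADAR cells (adjusted p = 0.0615), and left 1 of 2 genes that differed between lines in YTHDF3 RIP. Of 24 places of the members among the 10 highest editing rises per arm, 3 were left among genes with at least 3 sites. When ranked by the authors' natural log odds ratio 0 were left. In that ranking 79 to 304 genes per arm, with input at 0 and the RIP above 0, have no finite log odds ratio, whatever value is listed. The same holds for genes with the RIP at 0, which are outside that count. The depth at the editing sites is unknown and limits every editing level.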
